A study of Mus musculus with 18 samples.

Results

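The Hedgehog pathway genes examined in the subventricular zone (SVZ) were *Shh*, *Boc*, *Ptch1*, *Smo*, *Hhip*, *Sufu*, *Gli1*, *Gli2* and *Gli3*. The 9 genes were chosen by name, with every probe of the array that carries one of these symbols alone, and they have 20 of the 34885 probes with a single gene symbol. The SVZ lines the lateral ventricles of the adult brain and holds its neural stem cells, and its expression was profiled in 9 Tam-Idh1-KI and 9 control mice. Tam-Idh1-KI mice carried *Nes-CreER(T2)* and 1 floxed *Idh1* allele with the R132H mutation, so that tamoxifen switched the mutant on from the native *Idh1* promoter in cells that express nestin or descend from them. Control mice were *Idh1* wild type, with or without the *Nes-Cre* transgene, and mice of both groups, labelled as strain c57bl6, received tamoxifen at 50 mg/kg on 5 days at 5 to 6 weeks of age. Mice were 5 to 9 months old in both groups, with 5 females and 4 males among the Tam-Idh1-KI and 3 females and 6 males among the controls. The dissected tissue can hold cells in which no recombination took place. Such cells need not be free of the mutant, since the paper reports the floxed allele as leaky without Cre. The paper allows that this leak may have added to the phenotype.

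Hedgehog ligands bind the receptor Patched, which otherwise keeps Smoothened switched off at the primary cilium. Active Smoothened frees the Gli transcription factors from Sufu and stops the cutting of Gli3, and of part of Gli2, into repressors of transcription. *Gli1*, *Ptch1* and *Hhip* are themselves transcribed in response, so the pathway builds its own inhibitors. In the adult SVZ the pathway is known for keeping neural stem cells, above all those of the ventral wall.

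In Tam-Idh1-KI SVZ, none of these genes passed the test, and *Gli3* came closest. *Gli3*, which encodes the factor that acts mainly as the pathway's repressor, was 1.23-fold the control level (95% interval 1.11 to 1.36, n = 9 mice per group), and 9 of 9 Tam-Idh1-KI mice lay above the mean of the controls hybridised on the same day. *Ptch1*, the receptor gene and a readout of active signalling, was 0.901-fold (0.785 to 1.03). The 95% intervals of *Smo*, *Gli2*, *Sufu*, *Shh* and *Hhip* held no difference as well as differences in both directions, and *Gli1* and *Boc* were not detected on any array. In bulk tissue such as this, more cells of a type and more RNA per cell cannot be told apart.

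Illumina arrays (Mouse WG6-v2) took the RNA of 6 mice of each group on a first hybridisation day and of 3 of each on a second. The mean bead signal of an array ran from 460 to 905 in Tam-Idh1-KI and from 454 to 679 in controls, and 44.6% to 50.9% of probes were detected, that is, had a detection p under 0.05 against the negative control beads. Among markers of cell types that the SVZ holds, 14 of 15 neural stem cell and astrocyte genes, 8 of 10 neuroblast genes, 7 of 10 genes of dividing cells and 9 of 12 ependymal genes had a probe detected on at least 9 arrays. So did 9 of 12 genes of striatal and other neurons and 7 of 8 of microglia. Signal of cortical projection neurons varied most of the marker lists examined, and the summed signal of their 3 measured markers ran from 195 to 8399 in Tam-Idh1-KI and from 819.9 to 4866 in controls. The second day held the older mice, 7 to 9 months against 5 to 6 on the first. Within days the groups were not fully matched: first-day mice had a median age of 5 months in Tam-Idh1-KI and 6 in controls, and on the second day 3 of 3 Tam-Idh1-KI mice and 1 of 3 controls were female. *Idh1* itself was lower in 9 of 9 Tam-Idh1-KI mice than the same-day control mean, with a log2 fold change of -0.37 (standard error, SE, 0.11, adjusted p = 0.262 by limma). Whether its probe reads the mutant and the wild-type transcript alike is not known from the sources used here, so this value does not check the labels.

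Detection set which of the 9 genes could be compared. A probe was kept for the test where it was detected on at least 9 of the 18 arrays, whatever their group, and 9 of the 20 probes passed this filter. They belong to 7 genes, and 6 of the probes were detected on all 18 arrays. Of the 11 probes left out, 4 were detected on no array, the single probe of *Gli1*, both probes of *Boc* and 1 of the 4 of *Smo*. Levels on the array cannot be set against each other between probes, and probes of 1 gene were detected unequally, so an undetected probe does not show that its gene was near background.

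**Figure D1:**
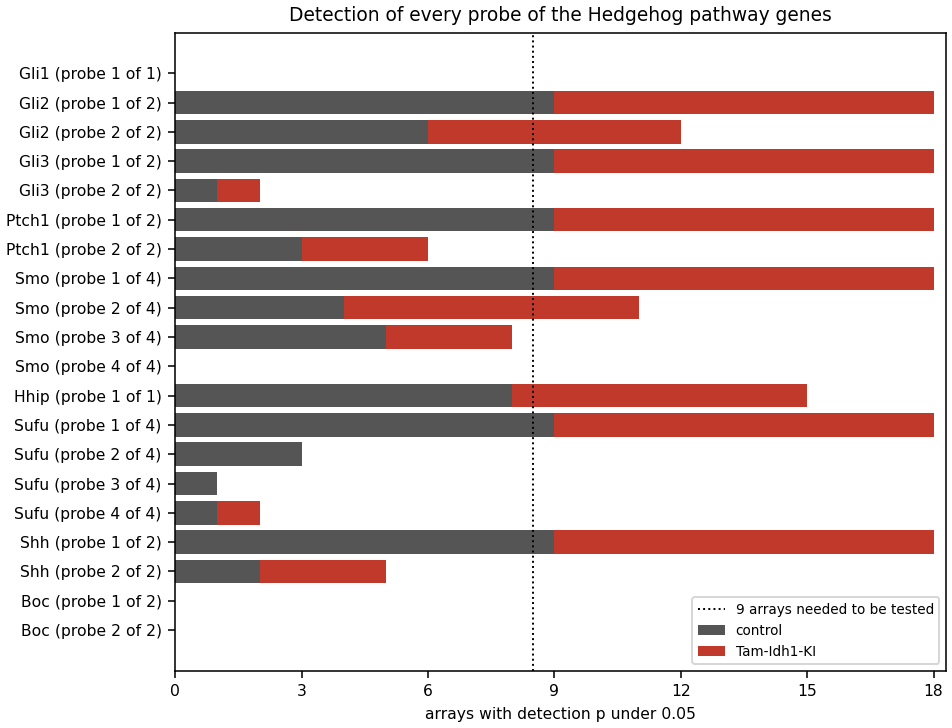
The number of arrays, out of 18, with a detection p under 0.05 is shown for each of the 20 probes, split into control (grey) and Tam-Idh1-KI (red) arrays, and the dotted line marks the 9 arrays needed for testing. Bars reach 18 for 6 probes, stay short of the line for 11, and are missing for the probes of *Gli1* and *Boc* and for 1 probe of *Smo*.

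The test was limma's linear model with genotype, hybridisation day and sex, and p-values were adjusted over all 18460 kept probes. It called 0 of the 9 kept probes at an adjusted p under 0.05, against 0.0975% of all kept probes (18 of 18460). At an unadjusted p under 0.05 the count was 1 of 9, the *Gli3* probe, against 9.16% of all kept probes. The methods' t-test, unpaired and on the same values, called 0 after Benjamini-Hochberg adjustment and 1, again *Gli3*, before it. Of the 9 probes 4 were higher (51.1% of all kept probes were) and 5 lower in Tam-Idh1-KI, with a median log2 fold change of -0.02, beside 0.0035 over all kept probes. The smallest adjusted p after that of *Gli3* was 0.701.

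**Figure D2:**
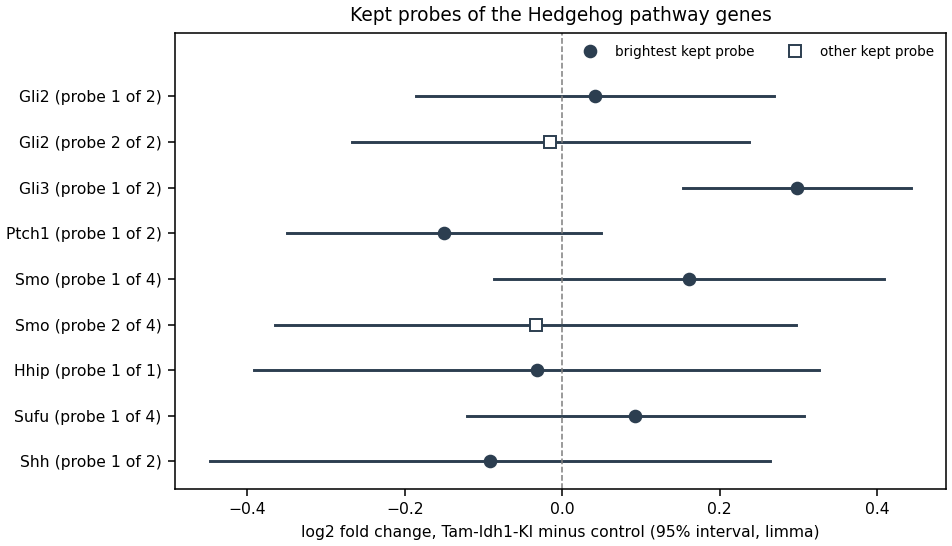
Log2 fold changes of Tam-Idh1-KI minus control (x axis) are shown for the 9 kept probes with 95% intervals from limma, filled circles for the brightest kept probe of a gene and open squares for the others. The interval of *Gli3*, from 0.15 to 0.44, lies above 0, and the intervals of the other 8 probes hold 0.

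*Gli3* was read by probe ILMN_2449396, detected on all 18 arrays. On the log2 scale its signal ran from 9.33 to 10.21 in Tam-Idh1-KI with a median of 9.65, and from 9.12 to 9.89 in controls with a median of 9.24. The pooled ranges overlap, and both groups sat higher on the second day, by 0.59 among the controls. On the first day the 6 Tam-Idh1-KI mice lay between 9.33 and 9.71 and the 6 controls between 9.12 and 9.38. A single control, replicate 1, lay above the lowest Tam-Idh1-KI mouse, replicate 1, and above no other. Among second-day arrays, Tam-Idh1-KI mice were at 9.90, 10.21 and 10.11 and the controls at 9.71, 9.89 and 9.80. The second-day groups did not overlap, though the lowest Tam-Idh1-KI mouse and the highest control were barely apart, and 6.8% of all kept probes separated in that direction on that day.

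The log2 fold change of *Gli3* was 0.30 (SE 0.069), with an unadjusted p = 0.000398 and an adjusted p = 0.139 by limma. The probe ranked 53 of 18460 by unadjusted p. The groups differed by 0.35 on the first hybridisation day and by 0.27 on the second, against a spread within group and day of 0.15 (SD) in Tam-Idh1-KI and 0.097 in controls. All 9 Tam-Idh1-KI mice stood above the same-day control mean, which 1.75% of all kept probes showed. With age added to the model it was 0.25 (SE 0.064, adjusted p = 0.276). The call depended on the weighting of the arrays: with limma's array weights *Gli3* passed (log2 fold change 0.32, adjusted p = 0.027). With these weights 55 of all 18460 kept probes passed, beside 18 without them. The second *Gli3* probe was detected on 2 of 18 arrays, 1 of each group, and gives no second reading.

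**Figure D3:**
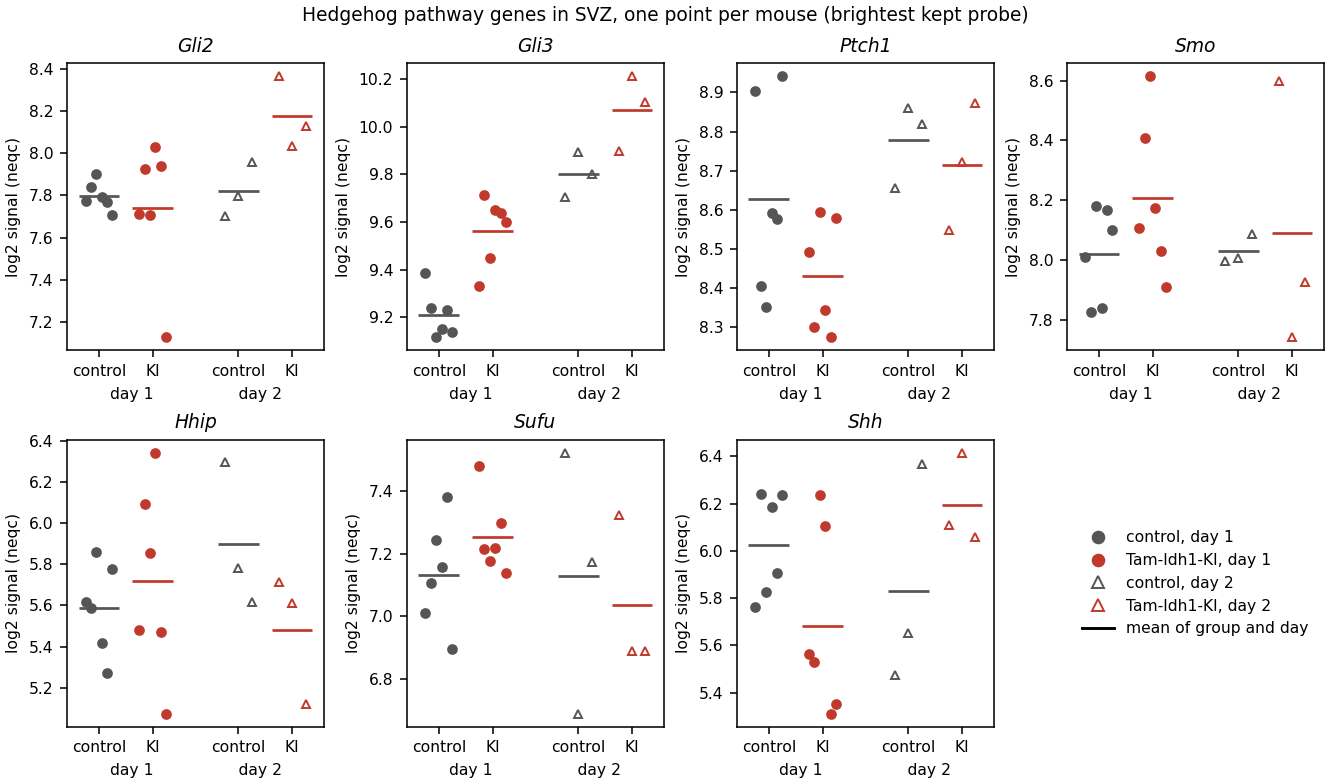
Normalised log2 signal (y axis) of the brightest kept probe of 7 Hedgehog pathway genes is shown with 1 point per mouse, control in grey and Tam-Idh1-KI in red, circles for the first hybridisation day and triangles for the second, with a line at each mean of group and day. For *Gli3* and *Smo* the Tam-Idh1-KI mean lies above the control mean on both days, the points of each gene overlap on at least 1 day, and the group means of *Shh*, *Hhip*, *Gli2* and *Sufu* stand in opposite order on the 2 days.

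Promoter sequence is shown for *Gli3*, the member closest to the threshold, and for *Ptch1*, the receptor gene that the pathway itself induces. Each is the 250 bases before the transcription start in RefSeq on GRCm38.p6, written 5′ to 3′ on the gene's strand, with *Gli3* on the plus strand at chr13:15463473-15463722 and *Ptch1* on the minus strand at chr13:63565736-63565985. Capitals mark GC boxes, the letters GGGCGG on either strand.
Gli3: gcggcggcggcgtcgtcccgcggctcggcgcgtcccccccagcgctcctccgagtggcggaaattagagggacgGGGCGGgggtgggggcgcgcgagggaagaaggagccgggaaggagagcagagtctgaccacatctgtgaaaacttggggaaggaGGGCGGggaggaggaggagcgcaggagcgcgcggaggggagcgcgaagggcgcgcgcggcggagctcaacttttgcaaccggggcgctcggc
Ptch1: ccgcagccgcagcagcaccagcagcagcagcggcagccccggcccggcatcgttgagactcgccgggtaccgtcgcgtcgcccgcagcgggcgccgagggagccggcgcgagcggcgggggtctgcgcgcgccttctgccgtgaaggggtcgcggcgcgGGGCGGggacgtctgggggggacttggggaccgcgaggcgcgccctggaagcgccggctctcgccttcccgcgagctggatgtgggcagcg
Both stretches are rich in G and C, 72.8% in *Gli3* and 78.4% in *Ptch1*, where the median promoter has 52.4%. GC boxes, which Sp1 family factors bind, lie at 2 places in *Gli3* and 1 in *Ptch1*, and 32.7% of the 32851 promoters of this length have at least 1. Promoters of 6 of the 9 genes were in the table used, those of *Gli2*, *Gli3*, *Ptch1*, *Smo*, *Hhip* and *Sufu*, and all but that of *Smo* hold a GC box. The letters GACCACCCA, to which Gli proteins bind, were searched on both strands and were in 0 of these 6 windows and in 0.225% of all promoters. The letters TATAAA were in 0 of the 6 as well, and in 12.4% of all.

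*Shh* encodes the ligand, Sonic hedgehog. Probe ILMN_2610013 was detected on all 18 arrays but close to background, with detection p-values up to 0.0491. Its log2 signal ran from 5.31 to 6.41 in Tam-Idh1-KI, with a median of 6.06, and from 5.48 to 6.37 in controls, with a median of 5.91. The groups overlapped almost fully. The log2 fold change was -0.09 (SE 0.17, adjusted p = 0.933 by limma), and its 95% interval, from -0.45 to 0.26, is among the widest of the 9 probes. The groups stood in opposite order on the 2 days, at -0.34 on the first and 0.36 on the second. The change of the genotype difference between days was 0.86 (SE 0.32), with an unadjusted p = 0.0164 and an adjusted p = 1.00 in limma's interaction model. It thus did not pass after adjustment over all kept probes, and the days also differ in the age of the mice. Without control replicate 2 the log2 fold change over both days was -0.0042. The other *Shh* probe was detected on 5 of 18 arrays, 3 of them Tam-Idh1-KI.

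Of the receptors, *Ptch1* encodes Patched, which binds the ligand, and *Boc* a co-receptor that presents the ligand to it. The *Ptch1* probe ILMN_2460224 ran from 8.27 to 8.87 in Tam-Idh1-KI, with a median of 8.55, and from 8.35 to 8.94 in controls, with a median of 8.66. Only 1 of 9 Tam-Idh1-KI mice lay above the same-day control mean, yet the groups overlapped on both days, and the controls were themselves spread out (within-day SD 0.22). Its log2 fold change was -0.15 (SE 0.095, interval -0.35 to 0.05, adjusted p = 0.701 by limma), or -0.08 without control replicate 1. It was -0.20 on the first hybridisation day and -0.06 on the second. The interval reaches from 0.785-fold to 1.03-fold. The second *Ptch1* probe was detected on 6 of 18 arrays, 3 of each group. For *Boc*, the lowest detection p of either probe on any array was 0.0759.

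*Smo* encodes Smoothened, the membrane protein that carries the signal onwards. Its brightest probe, ILMN_2986978, ran from 7.74 to 8.61 in Tam-Idh1-KI, with a median of 8.11, and from 7.83 to 8.18 in controls, with a median of 8.01. Tam-Idh1-KI mice were the more variable, holding both the lowest and the highest values, and the controls lay wholly inside their range. Between the groups the log2 fold change was 0.16 (SE 0.12, adjusted p = 0.757 by limma), with 6 of 9 Tam-Idh1-KI mice above the same-day control mean. The second kept *Smo* probe, detected on 11 arrays, was at -0.03 (SE 0.16, adjusted p = 0.979), so the 2 probes disagreed in sign within their errors. Another probe was detected on 8 arrays and was not tested.

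*Hhip* and *Sufu* encode inhibitors. Hhip is a membrane protein that binds and sequesters the ligand, and its gene, like *Ptch1*, is a target of the pathway. Its probe, ILMN_2684250, was detected on 15 arrays, and ran from 5.07 to 6.34 in Tam-Idh1-KI, with a median of 5.61, and from 5.27 to 6.29 in controls, with a median of 5.62. The medians of the groups were nearly the same and Tam-Idh1-KI spread further to both sides. The log2 fold change of -0.03 had the largest error of the 9 probes (SE 0.17, adjusted p = 0.983 by limma), and its sign turned with several settings.

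Sufu binds Gli proteins in the cytoplasm and holds them back from the nucleus. Probe ILMN_2441176 ran from 6.89 to 7.48 in Tam-Idh1-KI, with a median of 7.22, and from 6.69 to 7.52 in controls, with a median of 7.16. Both the highest and the lowest values belonged to controls. For *Sufu* the log2 fold change was 0.09 (SE 0.10, adjusted p = 0.869 by limma). The other 3 *Sufu* probes were detected on 1 to 3 arrays, which leaves this probe as the only reading of the gene.

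Of the transcription factors besides *Gli3*, *Gli2* encodes the main activator of the first response and *Gli1* an activator whose own transcription reports signalling. The *Gli2* probe ILMN_2522863 ran from 7.13 to 8.36 in Tam-Idh1-KI, with a median of 7.94, and from 7.70 to 7.96 in controls, with a median of 7.79. One Tam-Idh1-KI mouse of the first day lay far below all others of either group. Second-day Tam-Idh1-KI mice, between 8.04 and 8.36, did not overlap the controls, between 7.70 and 7.96, whereas the first-day groups overlapped and stood in the opposite order (-0.06, against 0.36 on the second day). Over both days the log2 fold change was 0.04 (SE 0.11, adjusted p = 0.958 by limma). The second-day separation in either direction was shared by 13.1% of all kept probes, and the change between days was 0.34 (SE 0.23, unadjusted p = 0.162, adjusted p = 1.00 in limma's interaction model). The second *Gli2* probe, detected on 12 arrays, was at -0.02 (SE 0.12) and at -0.08 on the second day, without that separation.

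*Gli1* gave no reading. The bead signal of its single probe ran from 103 to 188 over the 18 arrays, with detection p-values from 0.154 to 0.948. A level of *Gli1* below what this probe can show was thus not told apart from none, in either group, and the gene's response to the genotype cannot be given.

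What the arrays can show of small changes follows from the errors. Over the 9 kept probes the SE ran from 0.069 (*Gli3*) to 0.17 (*Hhip*), beside a median of 0.12 over all kept probes. The 95% intervals of the 8 probes other than *Gli3* reached from -0.45 (*Shh*) to 0.41 (*Smo*), which corresponds to 0.734-fold and 1.33-fold. Simulation of this comparison recovered 91 of 100 probes with a planted log2 shift of 1 and 52 of 100 with a shift of 0.5, so a smaller change would often be missed. The adjusted threshold depends on how many probes pass, more in the simulation than the 18 of the data, so recovery here may be lower. Simulated errors were drawn as independent normal values. An interaction of genotype with sex was called for 0 of the 18460 kept probes, as was one with hybridisation day.

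The target genes *Ptch1* and *Hhip* gave no correlation past the threshold over all arrays. Their values, centred on genotype and day, gave Pearson's r = -0.33 (permutation p = 0.185) and Spearman's rho = -0.34 (permutation p = 0.17) over 18 arrays. Without the 2 arrays farthest from the median of *Ptch1*, r was -0.54 (permutation p = 0.0337) and rho -0.50 (permutation p = 0.0504). Within the first day r was -0.19 (permutation p = 0.555, n = 12) and rho -0.13 (permutation p = 0.683). Within the second day r was -0.89 (exact permutation p = 0.0236, n = 6) and rho -0.89 (exact permutation p = 0.0333). All these coefficients are negative, p-values fell under 0.05 for both in the 6 second-day arrays and for r without those 2 arrays, and the difference between the days was not tested. Centring ties the values within a group together, which the permutation does not allow for, and 1 pair of genes was examined because *Gli1* gave no reading. All these p-values are two-sided.

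By likeness over the 18 arrays after the same centring, the genes that followed *Ptch1* most closely were *Plod2* (r = 0.876), *Rbl2* (0.870), *Taok2* (0.854), *Opa3* (0.853) and *Six3* (0.852). Those most like *Hhip* were *Syngr2* (r = 0.857), *Ccr6* (0.797), *Car12* (0.782), *Lin54* (0.758) and *Plekhf2* (0.758). For *Gli3*, added after its values were seen, they were *Abce1* (r = 0.810), *Zfp518b* (0.790), *Bri3* (0.777), *Tex264* (0.773) and *Ccdc47* (0.765). None of these 15 is a gene of the pathway lists used here. They were picked as the closest 5 of 11464 genes compared on the same arrays, which share hybridisation and dissection, so the values describe these arrays only.

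Beyond these genes, 61 further genes of the pathway were listed by role, from ligand release to targets. A probe was kept for 40 of them, 17 had none that passed the detection filter and 4 no probe with their symbol alone. None of the 40 passed at an adjusted p under 0.05 by limma, where 0.122% of all 11465 genes did. At an unadjusted p under 0.05 there were 7 higher and 1 lower, together 8 of 40, and the methods' t-test was not run on this list. The background is 9.28% of all genes in either direction, with 717 of the 11465 higher and 347 lower. By sign 22 were higher, where 54.5% of all genes were, and 18 lower, with a median log2 fold change of 0.04 beside 0.01 over all genes.

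Among receptors and co-receptors, 4 of 6 genes were measured, 2 positive and 2 negative. *Lrp2*, an endocytic receptor that binds Shh, had the smallest p of the list. Its log2 signal ran from 7.34 to 8.94 in Tam-Idh1-KI with a median of 7.80, and from 6.48 to 7.92 in controls with a median of 7.20, and 9 of 9 Tam-Idh1-KI mice lay above the same-day control mean. The log2 fold change was 0.74 (SE 0.15, adjusted p = 0.0602 by limma), and *Lrp2* passed when either Tam-Idh1-KI replicate 8 (adjusted p = 0.0326) or control replicate 3 (adjusted p = 0.035) was left out and, at 0.73 relative to the shift of all kept probes, with median scaling (adjusted p = 0.0454). Only 2 of 8 genes of ligands and their release were measured, *Scube3* at 0.25 (SE 0.14) and *Disp1*, the ligand's exporter, at -0.08 (SE 0.12). *Ihh* and *Dhh*, the other Hedgehog ligands, had no kept probe.

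Of the genes that control Smoothened and the Gli proteins at the primary cilium, 10 of 15 were measured and 8 of the 10 were positive, with a median of 0.06. *Evc2*, whose product, together with that of *Evc*, binds Smoothened near the base of the cilium, was at 0.32 (SE 0.11, adjusted p = 0.346 by limma) with 8 of 9 Tam-Idh1-KI mice above the mean of the controls of their day. Its log2 signal ran from 6.82 to 7.54 in Tam-Idh1-KI and from 6.59 to 7.30 in controls, so the groups overlapped widely. *Dzip1*, a ciliary protein gene, was at -0.15 (SE 0.15, adjusted p = 0.851).

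All 13 genes of Gli kinases and degradation were measured, 5 positive and 8 negative, with a median of -0.02. *Dyrk2*, a kinase that marks Gli2 for breakdown, was at -0.35 (SE 0.14, adjusted p = 0.459 by limma), from 5.12 to 6.27 in Tam-Idh1-KI and from 5.62 to 6.72 in controls. The subunits of protein kinase A, which primes Gli3 for cutting, were close to 0, with *Prkaca* at 0.04 (SE 0.089), *Prkacb* at -0.04 (SE 0.076) and *Prkar1a* at -0.05 (SE 0.066).

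Of 21 listed targets 11 were measured, 6 positive and 5 negative, with a median of 0.08. By limma at an unadjusted p under 0.05, 3 of the 11 were higher and 0 lower. Besides *Sfrp1* these were *Nkx2-2* at 0.47 (SE 0.16, adjusted p = 0.355) and *Ccnd2* at 0.27 (SE 0.10, adjusted p = 0.422). *Sfrp1*, which encodes a secreted Wnt-binding protein, ran from 9.38 to 10.40 in Tam-Idh1-KI and from 9.09 to 9.78 in controls, at a log2 fold change of 0.58 (SE 0.14, adjusted p = 0.191 by limma). *Zic1*, a zinc finger factor related to the Gli family, was at -0.65 with a wide error (SE 0.31, adjusted p = 0.557). Many of these targets answer to other pathways as well, and *Gli1*, the target most specific to Hedgehog, gave no reading.

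**Figure D4:**
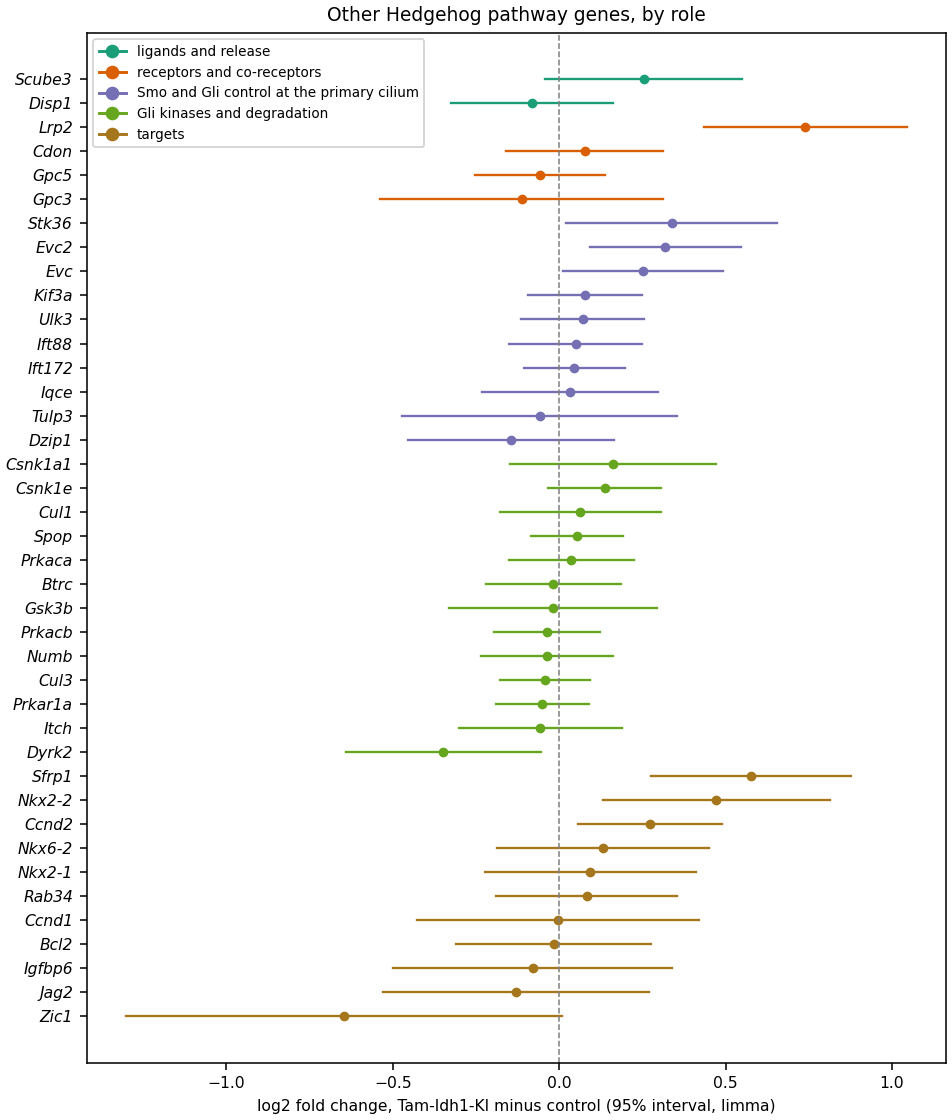
Log2 fold changes of Tam-Idh1-KI minus control (x axis) with 95% intervals from limma are shown for the brightest kept probe of the 40 other pathway genes, coloured by role. Most points lie near 0, and *Lrp2* at 0.74, *Sfrp1* at 0.58 and *Zic1* at -0.65 stand farthest from it.

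No cell type marker passed the test, and the lists leaned by sign as follows. Of the ependymal list 9 of 9 measured genes were positive, with a median log2 fold change of 0.31, and the summed signal ran from 7056 to 18523 in Tam-Idh1-KI and from 6643 to 12533 in controls. Of the neuroblast list 8 of 8 were positive (median 0.25, sums 15364 to 26273 against 15557 to 21603). Of the genes of dividing cells 7 of 7 were positive (median 0.32, sums 922 to 1677 against 843 to 1413). These 3 lists had the sign of *Gli3* and *Lrp2* throughout, and their summed signals, pooled over days, overlapped widely between the groups. By limma at an unadjusted p under 0.05, 6 of 9 ependymal, 5 of 8 neuroblast and 5 of 7 dividing-cell genes were higher and 0 lower. Of all 11465 genes 717 were higher and 347 lower at that threshold. Of the neural stem cell and astrocyte list 11 of 14 were positive (median 0.14, sums 40019 to 71430 against 41656 to 59460), *Tnc* at 0.64 (SE 0.16) and *Prom1* at 0.47 (SE 0.14) having the smallest p. *Prom1* was detected on only 9 arrays. At an unadjusted p under 0.05 by limma, 4 of this list were higher and 1 lower, *Slc1a2* at -0.22 (SE 0.087). The cortical projection neuron list, with 1 of 3 positive, was at a median of -0.94. Its negative genes had wide errors, *Slc17a7* at -1.14 (SE 0.56) and *Tbr1* at -0.94 (SE 0.53). They stood at -0.56 and -0.29 on the first day and at -2.31 and -2.29 on the second. The part of this in the second-day values of the Hedgehog genes was not tested. Of the choroid plexus list 2 of 7 were positive (median -0.10, sums 2820.3 to 9338 against 3748 to 7362), though the 2 with an unadjusted p under 0.05 were the positive ones, *Folr1* at 0.51 (SE 0.15) and *Sostdc1* at 0.28 (SE 0.12). Of the oligodendrocyte list 7 of 9 were positive (median 0.15, sums 30627 to 57716 against 24608 to 45527), with *Mbp* at 0.27 (SE 0.13). The microglia list had 6 of 7 positive (median 0.03), the endothelial and mural list 5 of 8 (median 0.04) and the list of striatal and other neurons 3 of 9 (median -0.05). Not kept were *Thbs4*, *Tubb3*, *Dlx5*, *Ccnb2*, *Ccna2*, *Tmem212*, *Neurod6*, *Snap25* and *Itgam*. The part of these cell types in the values of *Gli3* and *Lrp2* was not tested.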

How the data were processed

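For each array the authors deposited the bead signal of every probe, an intensity that was neither normalised nor background subtracted, with a detection p-value against the arrays' negative controls. GenomeStudio is named in the submitters' processing notes, version not given in the sources used here. A table of log2 values processed by the authors, whose normalisation is not given in the parts of the methods read here, served as an alternative. Signals were background corrected with the detection p-values, raised by an offset of 16, quantile normalised and log2 transformed by neqc (limma 3.58.1, R 4.3.3). Probes with 1 gene symbol and a detection p under 0.05 on at least 9 of 18 arrays were kept, 18460 probes of 11465 genes, and the brightest kept probe stood for a gene. Of all probes 34885 have 1 symbol, 18 several and 10378 none. The model of limma (lmFit, eBayes) held genotype, day of hybridisation and sex, and p-values were adjusted after Benjamini-Hochberg over all kept probes, with a threshold of 0.05. Neither the array slide nor the litter was used, since the labels name neither. The number of arrays limits the precision. The methods name unpaired tests, run here as the methods' t-test, and also describe paired littermate controls, whose pairs the labels do not give. All probes of the 9 genes are accounted for; of the other pathway genes, the rule names those that passed and the 3 with the smallest p in each direction, of the marker lists up to 2 genes with the smallest p, and for likeness the 5 closest genes. *Scube3*, *Disp1*, *Nkx2-2*, *Ccnd2*, *Slc1a2* and the protein kinase A subunits were named outside the rule, after their values were seen. Genes and lists were chosen with earlier results of these data known. Correlations used 100000 permutations, or all of them for 6 arrays (Python 3.11.15). On simulated data for this comparison, with 18460 probes, 4 of 18260 unchanged probes were called. Alternatives covered background, scaling, filter, covariates, weights, single days, thresholds and each array left out. All samples were mapped and 0 columns were left unused. Promoters are from RefSeq's GRCm38.p6, and probe sequences were not analysed here.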

Additional observations from a re-analysis of the deposited data

How the results depend on the processing

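The count of called Hedgehog probes was 0 under 35 of 37 alternatives, and 1, *Gli3*, with array weights (log2 fold change 0.32, adjusted p = 0.027 by limma) and with the methods' t-test at an unadjusted p under 0.05 (0.33, or an adjusted p = 0.988). These 2 settings called 55 and 875 of all 18460 kept probes, beside 18 in the main fit. The cause of the change in the count was not tested. *Gli3* stayed positive under all 36 alternatives, from 0.25 (no background correction) to 0.42 (median scaling), and from 0.27 to 0.33 with each array left out (adjusted p 0.0578 to 0.342). Median scaling moved the median of all kept probes to 0.11, relative to which *Gli3* was at 0.32. Of 215 values of the other 6 genes under alternatives 203 kept their direction. *Hhip* turned to 0.0048 with median scaling (-0.10 relative to that shift), 0.0227 with age in the model, 0.13 on the first day alone and 0.068, 0.0348 and 0.0273 without Tam-Idh1-KI replicate 6, Tam-Idh1-KI replicate 9 and control replicate 7. *Gli2* turned to -0.0573 on the first day alone and to -0.0087 and -0.0029 without Tam-Idh1-KI replicate 4 and control replicate 8, *Sufu* to -0.0939 on the second day alone, and *Shh* to 0.36 on the second day alone and 0.0011 with array weights. With each array left out *Hhip* ran from -0.1469 to 0.068 *Gli2* from -0.0087 to 0.144, *Ptch1* from -0.19 to -0.08 (without control replicate 1), *Shh* from -0.16 to -0.0042 (without control replicate 2), *Smo* from 0.09 (without Tam-Idh1-KI replicate 3) to 0.21 and *Sufu* from 0.04 (without control replicate 8) to 0.13. With median scaling *Ptch1* was at -0.03, or -0.13 relative to the shift. None of these values passed. Other pathway genes called, counted under 21 alternatives only, numbered 1, *Lrp2*, with median scaling and 0 to 1 with each array left out, the 1 being *Lrp2* without Tam-Idh1-KI replicate 8 and without control replicate 3. Settings without this count included array weights, age in the model, single days and the threshold of 0.1. That threshold was applied to the main fit, where *Lrp2* (adjusted p = 0.0602 by limma) lies under it. With the replicate number as a block 0 Hedgehog probes were called and *Gli3* was at 0.31 (adjusted p = 0.201). Deviations of same-numbered arrays correlated at over 0.1, a low bar, in 9 of 9 pairs (mean correlation 0.484), but these arrays share the day. Within days 4 of 9 pairs passed that bar (mean 0.0592). Of the 9 Tam-Idh1-KI arrays, 2 correlate best, among the controls, with the control of their own number. Signals close to background limit *Shh* and *Hhip*, and *Gli1* and *Boc* most.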
